A study of Homo sapiens with 6 samples.

Results

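The nuclear genes for small subunit proteins of the mitochondrial ribosome were taken as those with a symbol of MRPS and a number, with or without a letter from A to C, together with DAP3 and PTCD3. These are 31 of the 20289 genes in the table, and all 31 had at least 1 FPKM in at least 3 libraries, the minimum for testing. FPKM is a footprint count divided by the length of the gene and by the size of the library. Ribosome footprints, the mRNA pieces covered by ribosomes, were measured in 6 libraries of RKO, a human colorectal cancer cell line. The 3 shControl libraries carry a control hairpin and are typed as WT in the labels, and the 3 shTRMT6 libraries carry a hairpin that knocks down TRMT6, part of the methyltransferase that makes m1A in tRNA. The labels do not say whether the libraries of a group are separate cultures, or how many hairpins or clones were used, so p-values measure the spread between these libraries. A footprint level reflects mRNA amount and ribosomes per mRNA together, and fewer cells with a given mRNA cannot be told apart from less of it per cell.

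Mitochondrial ribosomes translate the few mRNAs made from mitochondrial DNA, all of which encode subunits of the respiratory chain and ATP synthase. Their protein components are encoded in the nucleus, translated by cytosolic ribosomes and imported. The small subunit binds the mRNA and decodes it, and the large subunit joins the amino acids. Some small subunit proteins have a bacterial homologue, and others are found only in mitochondrial ribosomes.

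Not every gene with an MRPS symbol encodes a part of the small subunit. The human mitochondrial ribosome carries MRPS30 and MRPS18A in its large subunit, and MRPS36, now also called KGD4, belongs to the 2-oxoglutarate dehydrogenase complex. That leaves 28 genes of the small subunit, of which 16 have a bacterial homologue and 12 are specific to mitochondria. Counts below cover all 31 unless the 28 are named.

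TRMT6 itself stood at 57.6, 58.4 and 95.3 FPKM with the control hairpin and at 20.7, 21.9 and 24.1 FPKM with knockdown, with no overlap (log2 fold change -1.58, SE 0.27, limma adjusted p = 0.00301). From the spacing of low FPKM values each library was estimated to hold 2581000 to 4040000 footprints. Of the values used for it, 59.7% to 73.2% lay within 0.1 of a whole number of reads. By this estimate a single member rested on 33 to 1883 footprints in a library. Of 10 colorectal epithelial markers KRT18, KRT8, EPCAM and CDX2 were detected in every library, while CDH1, CDX1 and VIL1 were at 0 in all 6. Of 6 fibroblast markers 5 stayed under 1 FPKM in every library, and the immune markers PTPRC and CD3E were at 0, LYZ was at most 0.78 and CD14 at most 4.06 FPKM, while CD68, which other cells also express, was at 559 to 754 FPKM.

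Coding length was one feature along which the members differed, and footprints lie on the coding sequence. The shortest member is MRPS21, homologous to a bacterial small subunit protein, and it also had the highest FPKM. Its coding sequence of 264 bases is shown whole because it is the smallest target for footprints among the members (GENCODE 29, GRCh38, gene at chr1:150293720-150308979, plus strand; capitals mark the start and stop codons).
MRPS21 coding sequence: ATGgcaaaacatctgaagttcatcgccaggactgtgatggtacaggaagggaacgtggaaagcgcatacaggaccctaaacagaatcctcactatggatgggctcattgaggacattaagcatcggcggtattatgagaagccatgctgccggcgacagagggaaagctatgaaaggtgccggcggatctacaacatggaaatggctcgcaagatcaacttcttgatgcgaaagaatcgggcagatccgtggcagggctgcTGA
The longest is PTCD3, whose product carries pentatricopeptide repeats, with 2070 bases including the stop codon. Across the 31 genes 23 had coding lengths under 1000 bases and 8 had more.

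Promoter sequence was examined for letters that transcription factors of mitochondrial genes are known to bind. ETS factors such as GABPA, NRF1 and YY1 are textbook regulators of nuclear genes for mitochondrial proteins. RefSeq windows of 300 bases on GRCh38.p14, from 250 before to 50 after a start, were found for 30 of the 31 genes, with MRPS36 matched as KGD4 and no entry for MRPS28. On either strand, CCGGAAG (ETS) was present in 12 of the 30 genes (40%) and in 12.2% of all 27305 genes with a window. AAGATGGC (YY1) was present in 9 (30%) against 3.52% of all genes, and GCGCATGCG (NRF1) in 1 (3.33%) against 2.34%. Among the 15 members with a window that were lower after knockdown, as described below, 4 held the ETS letters and 5 the YY1 letters. These matches are a description of the windows and were not tested. The 27305 genes were not limited to genes with footprints here, as the members are, so the shares come from unlike sets. The 3 windows below show the matches in capitals, in a member with 2 ETS matches, a member with ETS and NRF1 matches, and the member with the highest fold change.
MRPS21 promoter, chr1:150293611-150293910, plus strand: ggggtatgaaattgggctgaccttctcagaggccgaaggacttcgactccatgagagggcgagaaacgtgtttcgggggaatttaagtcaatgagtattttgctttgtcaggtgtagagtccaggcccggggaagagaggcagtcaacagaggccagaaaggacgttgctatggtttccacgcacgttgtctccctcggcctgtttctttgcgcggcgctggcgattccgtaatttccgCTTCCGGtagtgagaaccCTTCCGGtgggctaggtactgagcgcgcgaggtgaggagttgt
MRPS18C promoter, chr4:83455808-83456107, plus strand: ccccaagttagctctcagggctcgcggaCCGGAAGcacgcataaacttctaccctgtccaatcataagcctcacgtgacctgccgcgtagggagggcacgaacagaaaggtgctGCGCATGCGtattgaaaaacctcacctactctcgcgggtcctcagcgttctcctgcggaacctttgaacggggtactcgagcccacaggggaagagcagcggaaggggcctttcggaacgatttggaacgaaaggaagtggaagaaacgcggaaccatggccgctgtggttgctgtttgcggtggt
PTCD3 promoter, chr2:86105985-86106284, plus strand: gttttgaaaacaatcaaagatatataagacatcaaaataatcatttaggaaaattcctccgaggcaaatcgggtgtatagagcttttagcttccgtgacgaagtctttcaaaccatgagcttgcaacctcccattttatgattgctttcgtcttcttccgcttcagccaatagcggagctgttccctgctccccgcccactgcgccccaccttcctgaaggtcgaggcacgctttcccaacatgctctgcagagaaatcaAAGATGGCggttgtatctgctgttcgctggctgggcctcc
Counting the start as base 1, the ETS matches of MRPS21 began at -11 and 8, the ETS and NRF1 matches of MRPS18C at -222 and -136, and the YY1 match of PTCD3 at 11.

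Footprints on many of these genes were lower after TRMT6 knockdown, with MRPS17, MRPS28 and MRPS21 falling most before any rescaling. By limma on log2(FPKM + 1), with p-values adjusted over all 11566 tested genes, 16 members were lower, 0 higher and 15 did not pass an adjusted p of 0.05. Among all tested genes 9.04% were lower and 26.5% higher. The median log2 fold change of the members was -0.79, and that of all tested genes 0.39. In 20 members every knockdown library lay below every control library, where 14.3% of all tested genes did, and in 1 member every knockdown library lay above, where 37.0% did. Of the 28 genes of the small subunit itself 14 were lower, with a median of -0.75. With each library scaled to its median, which moved the median of all tested genes to -0.07, 24 members were lower against 19.7% of all tested genes, and 0 were higher; the lower and higher genes of the whole table were then 2275 and 1520, in place of 1046 and 3069. Without shTRMT6 replicate 1 or without shTRMT6 replicate 3, 10 members were lower in each case. The lower genes of the whole table also became fewer, at 587 and 599. Without shControl replicate 3, 21 members were lower and 1, PTCD3, was higher, beside 1428 lower and 3270 higher genes of the whole table.

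**Figure D1:**
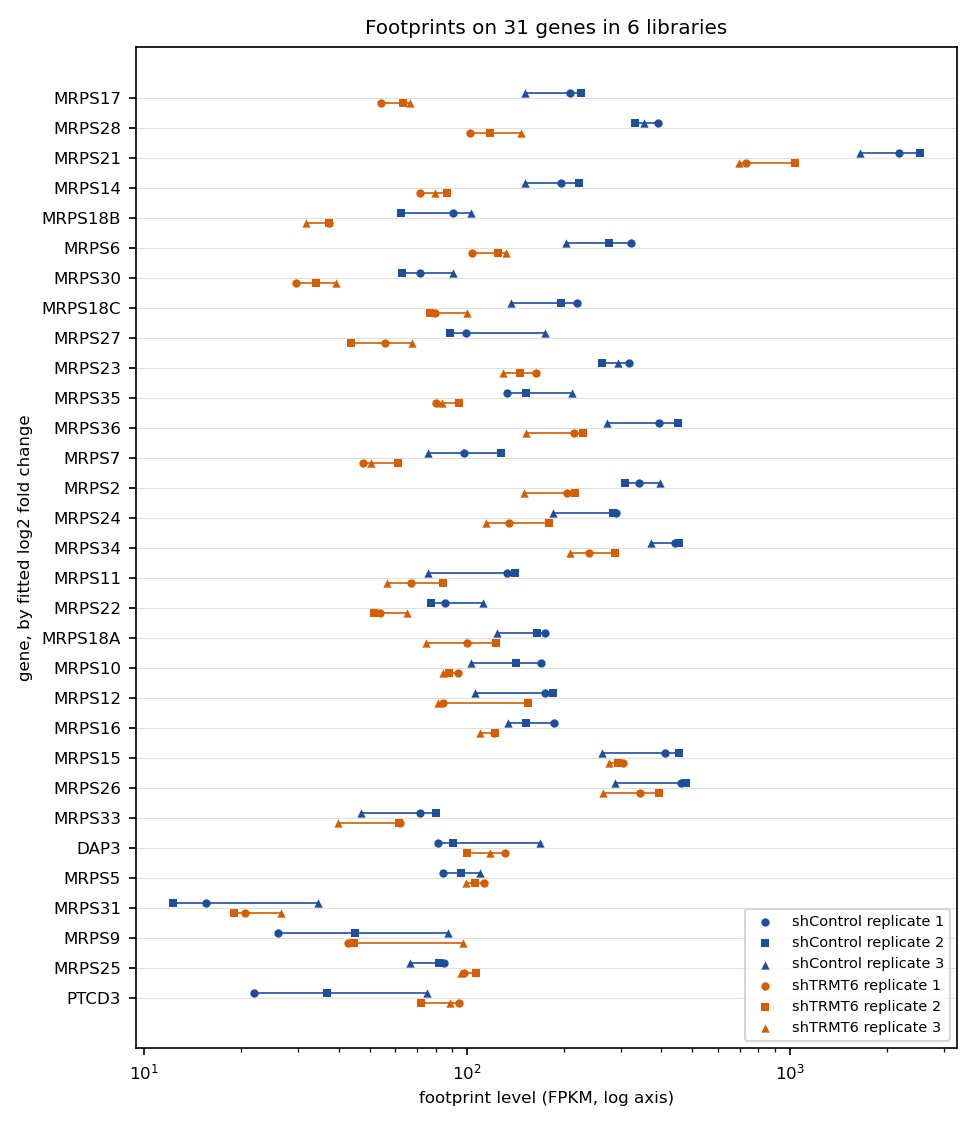
Footprint level in FPKM (log axis) of each of the 31 genes in each library, with shControl in blue above and shTRMT6 in orange below, and a line from the lowest to the highest library. Genes are ordered by fitted log2 fold change, from MRPS17 (-1.64) to PTCD3 (1.08); in 20 genes the whole orange line lies left of the blue one.

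The 16 homologues of bacterial small subunit proteins, which form the conserved core around the rRNA, included the 4 largest decreases before any rescaling. Of them 9 were lower and 7 were not called, and the median log2 fold change was -0.85. The order changed with trends by level and coding length removed. There MRPS17 (-1.57) was followed by MRPS30 (-1.48), MRPS18B (-1.32) and MRPS27 (-1.30), which are not in this class. MRPS17 stood at 208, 226 and 151 FPKM with the control hairpin and at 54.1, 63.5 and 66.8 FPKM with knockdown. The highest knockdown library was thus below the lowest control library by a wide margin, and the mean was 3.18-fold lower (195 ± 39.1 against 61.5 ± 6.60 FPKM, SD, n = 3 each; log2 fold change -1.64, SE 0.23, limma adjusted p = 0.0016). The gene lies at chr7:55951819-55956501 on the plus strand and has 4 annotated pseudogenes, whose reads could be shared with it.

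MRPS28 stood at 392, 332 and 354 FPKM with the control hairpin and at 102, 118 and 147 FPKM with knockdown, with no overlap (log2 fold change -1.56, SE 0.22, limma adjusted p = 0.00142). MRPS21 stood at 2182, 2529 and 1654 FPKM with the control hairpin and at 734, 1041 and 696 FPKM with knockdown. It stayed the highest of the 31 genes in every library and fell by 1.37 on the log2 scale (SE 0.24, limma adjusted p = 0.00366). Its log2 fold change was -0.81 with quantile normalization and -1.06 with trends by level and coding length removed, and it passed in both. MRPS18B fell more there (-1.55 and -1.32), as did MRPS30 (-1.45 and -1.48). MRPS21 has 8 annotated pseudogenes, the most of any member.

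MRPS14, a protein of the head of the subunit, stood at 196, 223 and 151 FPKM with the control hairpin and at 71.8, 86.7 and 79.7 FPKM with knockdown (log2 fold change -1.23 with SE 0.23, limma adjusted p = 0.00401). MRPS6 stood at 323, 276 and 203 FPKM with the control hairpin and at 104, 124 and 133 FPKM with knockdown (log2 fold change -1.13, limma adjusted p = 0.00682). For both genes the control libraries differed among themselves, with shControl replicate 3 lowest, and the knockdown libraries still lay below it. MRPS7, MRPS2 and MRPS24, the last a homologue of a protein at the mRNA entry, also passed, with log2 fold changes of -0.89, -0.88 and -0.81. Exons of the readthrough gene URGCP-MRPS24, listed at 9.23 to 28.6 FPKM, overlap coding bases of MRPS24 on the same strand. Coding bases of MRPS17 are overlapped on their own strand by exons of AC092647.5 (0 to 19.2 FPKM). Those of MRPS28 are overlapped by AC036214.3 (0 in all libraries) and those of MRPS6 by SLC5A3 (19 to 29.7 FPKM). On the opposite strand exons of RSPH9, ABRAXAS1, COPB2 and NR2C2 overlap coding bases of MRPS18A, MRPS18C, MRPS22 and MRPS25. How such reads were assigned is not stated.

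MRPS11, MRPS10, MRPS12, MRPS16 and MRPS15 had fold changes below 0 that did not pass, from -0.71 for MRPS11 to -0.33 for MRPS15 on the log2 scale. MRPS12, a homologue of the protein at the decoding centre, stood at 174, 184 and 106 FPKM with the control hairpin and at 84.5, 155 and 81.5 FPKM with knockdown, so that the groups overlapped (limma adjusted p = 0.193). MRPS10 and MRPS16 did not overlap between groups but did not pass (limma adjusted p = 0.075 and 0.164). MRPS5, a homologue of a protein lining the mRNA entry, stood at 84.6, 96.1 and 110 FPKM with the control hairpin and at 113, 106 and 99.0 FPKM with knockdown. These ranges overlapped, with a log2 fold change of 0.13 (SE 0.21, limma adjusted p = 0.648). MRPS9 varied widely within both groups, from 26 to 87.2 FPKM in the control libraries and from 42.8 to 97.2 FPKM after knockdown (log2 fold change 0.28, SE 0.45).

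Of the 12 proteins specific to mitochondrial ribosomes 5 were lower and 7 were not called, and the median log2 fold change was -0.47. The difference between this class and the bacterial homologues was not tested. MRPS23, MRPS35 and MRPS34 were lower, with log2 fold changes of -0.99, -0.91 and -0.79. MRPS27, a pentatricopeptide repeat protein, stood at 99.5, 88.6 and 175 FPKM with the control hairpin and at 55.7, 43.8 and 67.6 FPKM with knockdown. It passed (log2 fold change -1.06, SE 0.30, limma adjusted p = 0.0226), although shControl replicate 3 was far above the other control libraries. MRPS22, a gene known from inherited disorders of mitochondrial translation, had a log2 fold change of -0.67 and lay just outside the threshold (limma adjusted p = 0.0503), with no overlap between groups.

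DAP3 and PTCD3 do not carry the MRPS name. DAP3, a GTP-binding protein also known as a mediator of cell death, stood at 81.6, 90.3 and 168 FPKM with the control hairpin and at 131, 100 and 118 FPKM with knockdown. The knockdown libraries all lay within the range of the control libraries (log2 fold change 0.10, SE 0.29, limma adjusted p = 0.804). PTCD3 stood at 21.9, 36.9 and 75.3 FPKM with the control hairpin and at 94.8, 72.0 and 88.5 FPKM with knockdown. The groups overlapped only through shControl replicate 3 and shTRMT6 replicate 2, and the log2 fold change of 1.08 (SE 0.39) did not pass (limma adjusted p = 0.0562). It was higher without shControl replicate 3 (1.54, limma adjusted p = 0.00436) and with the replicate number as a block (limma adjusted p = 0.0303), while with median scaling it was 0.59 (limma adjusted p = 0.272).

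MRPS31 had the lowest level of all members in every library, at 15.5, 12.3 and 34.6 FPKM with the control hairpin and 20.5, 18.9 and 26.6 FPKM with knockdown (log2 fold change 0.20 with SE 0.38). MRPS33 stood at 71.7, 79.9 and 46.9 FPKM with the control hairpin and at 61.8, 61.8 and 40.0 FPKM with knockdown (log2 fold change -0.27 with SE 0.29). In both genes the groups overlapped and the difference did not pass (limma adjusted p = 0.705 and 0.492). MRPS26 also had a log2 fold change of -0.27. MRPS25, named after its values were seen, was the only member in which every knockdown library was above every control library, with 85.2, 81.9 and 66.5 against 97.8, 107 and 95.6 FPKM. Its log2 fold change of 0.36 (SE 0.21) did not pass (limma adjusted p = 0.206) and was -0.13 with median scaling. The values of DAP3, MRPS5, MRPS9 and MRPS31 near or above 0 also turned negative there, at -0.39, -0.36, -0.21 and -0.27, and MRPS15 and MRPS26 were at 0.01 and 0.13 with trends by level and coding length removed.

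**Figure D2:**
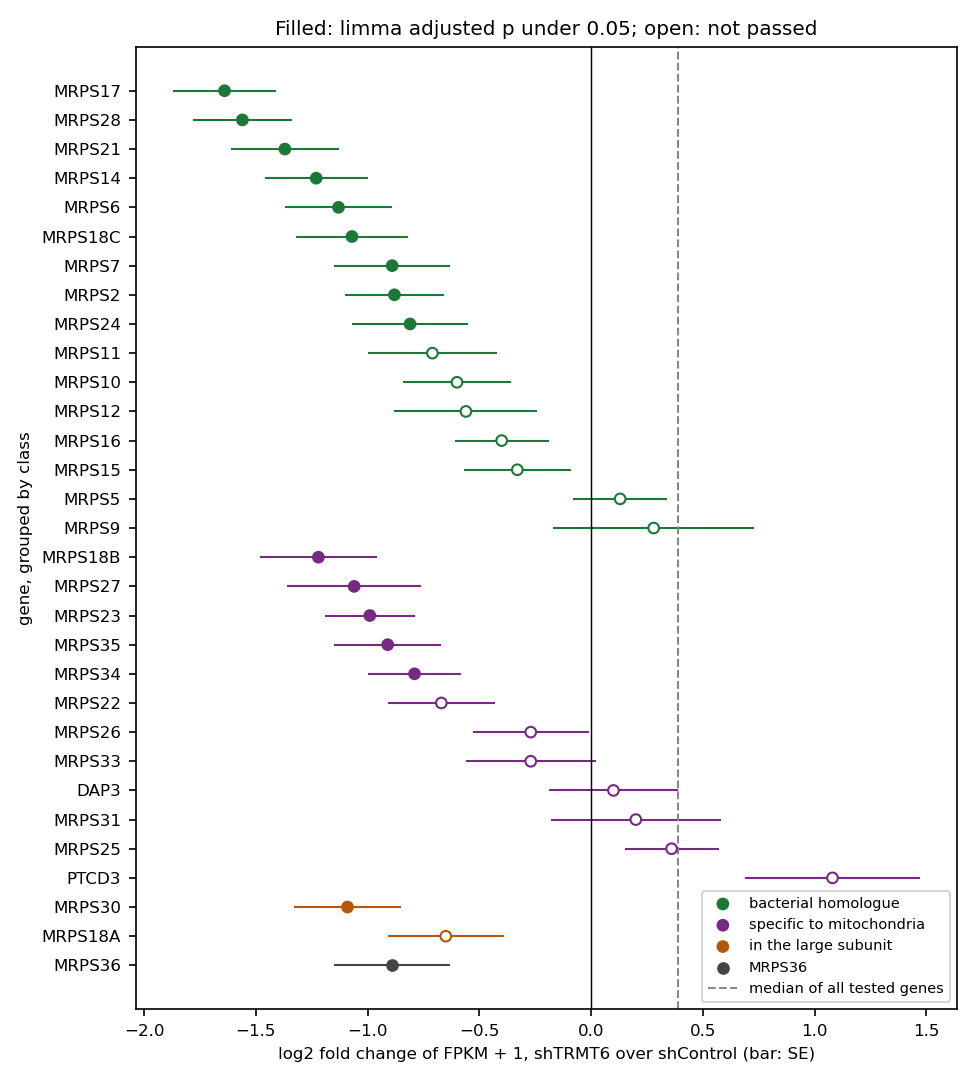
Log2 fold change of FPKM + 1 (x axis, bars show the SE) for the 31 genes, grouped and coloured by class; filled points passed limma at an adjusted p under 0.05 and open points did not. All filled points lie below 0, 9 of 16 among the bacterial homologues and 5 of 12 among the proteins specific to mitochondria, and the dashed line marks the median of all tested genes at 0.39.

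The 3 human relatives of a single bacterial protein, MRPS18A, MRPS18B and MRPS18C, sit at different places in the ribosome. MRPS18C, in the position of the bacterial protein, stood at 219, 196 and 136 FPKM with the control hairpin and at 79.7, 77.0 and 100 FPKM with knockdown (log2 fold change -1.07 with SE 0.25, limma adjusted p = 0.00948). MRPS18B, at another site of the small subunit and counted above among the 12 proteins specific to mitochondria, since bacteria have no protein at that site, stood at 90.8, 62.5 and 103 FPKM with the control hairpin and at 37.5, 37.4 and 31.7 FPKM with knockdown (log2 fold change -1.22 with SE 0.26, limma adjusted p = 0.00686). MRPS18A, in the large subunit, stood at 175, 165 and 124 FPKM with the control hairpin and at 99.9, 123 and 74.6 FPKM with knockdown. Its groups did not overlap, but shTRMT6 replicate 2 reached 123 FPKM, next to 124 in shControl replicate 3, and the log2 fold change of -0.65 did not pass (limma adjusted p = 0.074). The differences between the 3 fold changes were not tested.

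MRPS30, a large subunit protein by structure, stood at 71.5, 62.7 and 90.4 FPKM with the control hairpin and at 29.6, 34.2 and 39.4 FPKM with knockdown. All knockdown libraries lay well below the controls (log2 fold change -1.09, SE 0.24, limma adjusted p = 0.00879). MRPS36 stood at 393, 449 and 272 FPKM with the control hairpin and at 215, 229 and 152 FPKM with knockdown (log2 fold change -0.89 with SE 0.26, limma adjusted p = 0.025). So the 3 genes outside the small subunit that share the name also had lower values in every knockdown library, with 2 of them past the threshold.

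Of the 16 lower genes 9 passed in each of the 6 fits that left out 1 library, namely MRPS17, MRPS28, MRPS21, MRPS14, MRPS18B, MRPS6, MRPS30, MRPS18C and MRPS23. MRPS2 lost its call without shTRMT6 replicate 3, MRPS35 without shTRMT6 replicate 1 or 3, and MRPS27 without shTRMT6 replicate 1 or 2. MRPS34 lost it in 3 of the 6 fits, all but those without shControl replicate 2, shControl replicate 3 or shTRMT6 replicate 2. MRPS24, MRPS36 and MRPS7 kept theirs only without shControl replicate 3 and without shTRMT6 replicate 2. With trends by level and coding length removed, MRPS24 and MRPS34 ended their calls (limma adjusted p = 0.0554 and 0.0763) and MRPS22 passed (-0.86, limma adjusted p = 0.0236).

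The members' values differed with coding length both between the groups and within the controls, though short and long members overlapped. Log2 fold changes ran from -1.64 to 0.36 under 1000 bases and from -1.09 to 1.08 above. Of the 23 genes under 1000 bases 14 were lower (median log2 fold change -0.88), and of the 8 longer genes 2 were lower, MRPS27 and MRPS30, with a median of 0.12. The boundary of 1000 bases was chosen after the values were seen. All tested genes followed the same order, with 20.3% lower and a median of -0.05 among 3723 genes under 1000 bases, and 3.63% lower and a median of 0.57 among 7687 longer ones. The members' share of lower genes was thus 60.9% among the short and 25% among the long ones, above that of all tested genes on both sides. Across the members, Pearson's r between log2 fold change and log2 coding length was 0.51 and Spearman's rho 0.38 (n = 31 genes, which share libraries and are not replicates). Without PTCD3 these were 0.38 and 0.32, and across 11410 tested genes with a coding length 0.33 and 0.36. With the log2 mean FPKM of the member r was -0.41 and rho -0.33, and with GC content of the coding sequence -0.09 and -0.02.

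**Figure D3:**
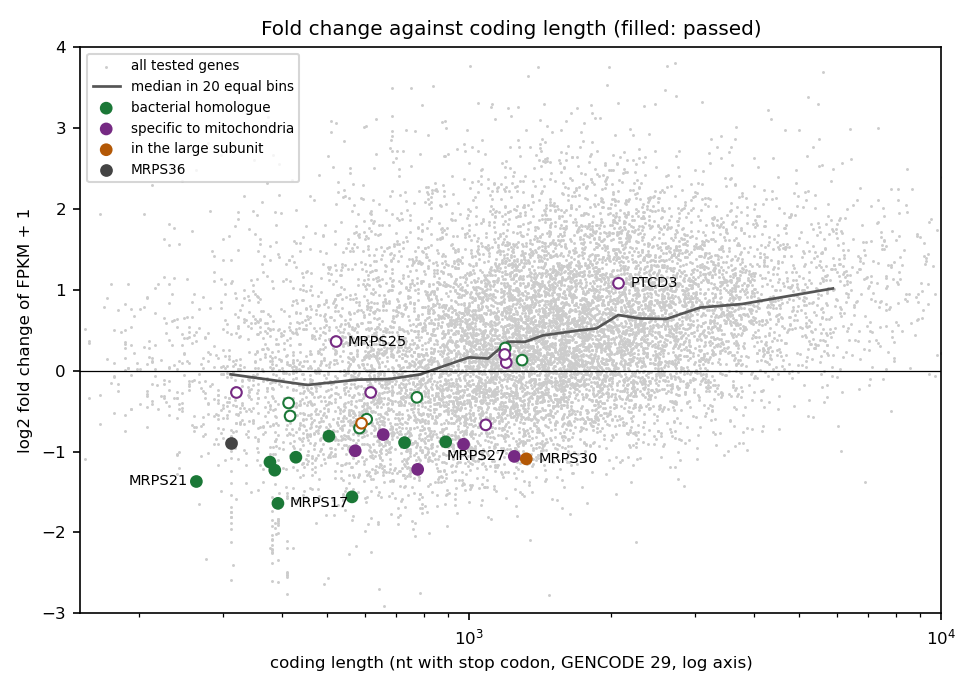
Log2 fold change of FPKM + 1 against coding length in nucleotides (log axis) for the members, coloured by class and filled where limma passed, over all tested genes in grey with their median in 20 bins as a line (78 of 11410 genes lie outside the axes). Members of 1000 bases or more have a median of 0.12 and shorter ones -0.88; MRPS27 and MRPS30 are the filled points among the long genes.

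The third control library stood apart for the long members. In all 8 genes of 1000 bases or more, shControl replicate 3 was the highest control library, and 18 of the 23 shorter ones had their lowest there. On the log2(FPKM + 1) scale, shControl replicate 3 minus the mean of the other control libraries had a median of 0.93 for the long members (range 0.28 to 1.37) and -0.52 for the short ones (range -0.85 to 0.57). For all tested genes these medians were 0.02 and -0.44, and 39.5% of the long genes had their highest control value in this library. The difference was above 0 in 829 of all 3723 tested genes under 1000 bases and in 4 of the 23 short members. Among longer genes it was above 0 in 3905 of 7687 and in all 8 long members. PTCD3, MRPS9, MRPS31 and DAP3 had the largest values, 1.37, 1.32, 1.27 and 0.96. These are 4 of the 6 members with a fold change above 0, and the part of this library in their overlap between groups was not tested, beyond the fit without it. There DAP3, MRPS9 and MRPS31 had log2 fold changes of 0.42, 0.72 and 0.62 and still did not pass (limma adjusted p = 0.0958, 0.182 and 0.0951).

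**Figure D4:**
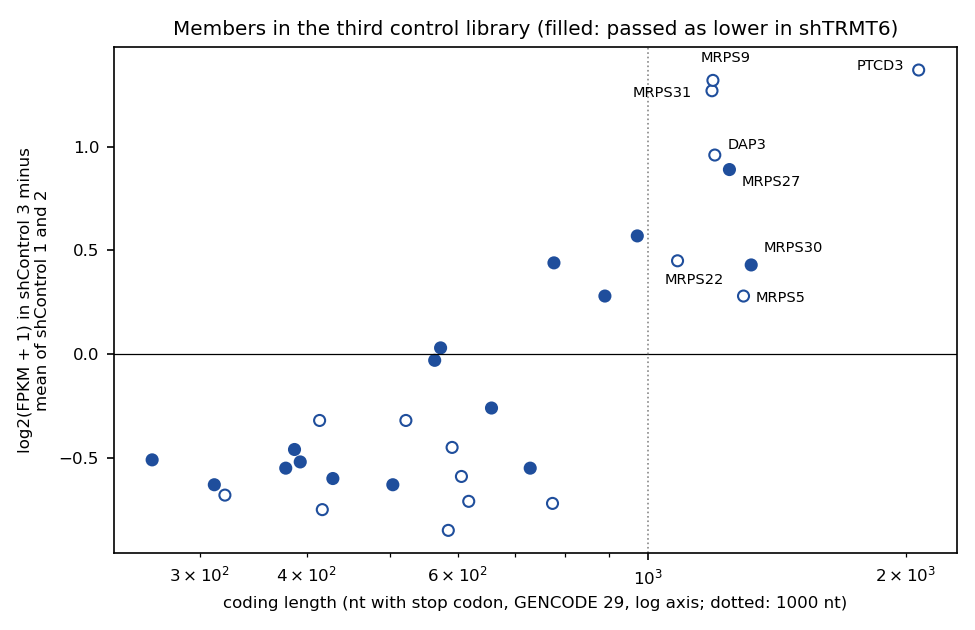
Difference in log2(FPKM + 1) between shControl replicate 3 and the mean of shControl replicates 1 and 2 (y axis) against coding length (log axis) for the 31 members; filled points are the 16 genes lower after knockdown. All 8 members right of the dotted line at 1000 bases lie above 0, and 19 of the 23 shorter ones lie below it. Of all tested genes, not drawn, 3905 of 7687 long and 829 of 3723 short ones were above 0.

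Although each protein is present once in a ribosome, footprint levels per length differed widely among the members. In the control libraries the highest, MRPS21, stood 47.8 to 206 times above the lowest, MRPS31, and in the knockdown libraries 26.2 to 55 times. By control mean MRPS34, MRPS26, MRPS15 and MRPS36 followed MRPS21, and MRPS33, MRPS9, PTCD3 and MRPS31 were the lowest. Of the 30 pairs of neighbours in this order 1, MRPS21 and MRPS34, had control ranges that did not overlap, so most steps in the order lie within the spread between libraries. The SD of log2(FPKM + 1) over the 31 members was 1.43, 1.40 and 1.07 with the control hairpin and 1.07, 1.14 and 0.95 with knockdown. It was highest in shControl replicates 1 and 2, while shControl replicate 3 lay within the range of the knockdown libraries. MRPS17 went from rank 11 in the controls to 24 after knockdown, and PTCD3 from 30 to 20.

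The summed level of the members was lower in each knockdown library than in each control library. It came to 7976, 8274 and 6617 FPKM with the control hairpin and to 4084, 4660 and 3823 FPKM with knockdown, 7622 ± 884 against 4189 ± 428 FPKM (SD, n = 3 each), 1.82-fold lower. MRPS21 alone made up a large part of it, and without MRPS21 the sum was 1.63-fold lower, from 5501 ± 466 to 3366 ± 246 FPKM. As a share of all FPKM the members held 0.461% ± 0.0137 in shControl and 0.268% ± 0.0233 in shTRMT6. The bacterial homologues had a sum 2.03-fold lower and the proteins specific to mitochondria 1.43-fold lower (1909 ± 35.1 against 1338 ± 106 FPKM). By group means MRPS21 held 2122 of the 5112 FPKM of the homologues with the control hairpin and 823 of 2519 with knockdown. The sum of the homologues without MRPS21 was not taken. Long members were MRPS5 and MRPS9 among the homologues, and MRPS22, MRPS27, MRPS31, DAP3 and PTCD3 among the proteins specific to mitochondria. The part of coding length in the difference between these sums was not tested.

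Other parts of mitochondrial translation were read from lists of known members. AURKAIP1 and CHCHD1 also encode proteins of the small subunit. AURKAIP1 was lower, from 378 ± 67.3 to 224 ± 30.7 FPKM (log2 fold change -0.75, limma adjusted p = 0.0257; with trends by level and coding length removed -0.38, limma adjusted p = 0.103), and CHCHD1 did not pass (-0.33, limma adjusted p = 0.377). Of 49 large subunit genes named MRPL 24 were lower and 0 higher, with a median log2 fold change of -0.70. MRPL16, MRPL48 and MRPL13 had the smallest p-values of these, with log2 fold changes of -1.86, -1.87 and -1.17. The summed level of the 28 small subunit genes over that of the 49 MRPL genes was 0.460, 0.494 and 0.526 with the control hairpin and 0.379, 0.388 and 0.378 with knockdown. These ranges did not overlap, and the ratio was not tested, since MRPS21 weighs heavily in it. Among 32 genes of the cytosolic small subunit 17 were lower and 0 higher, with a median of -0.68, RPS3, RPS7 and RPS13 leading with -1.69, -1.27 and -1.04. The share of lower genes was 51.6% for the members, 49% for the MRPL genes and 53.1% for the cytosolic small subunit. With trends by level and coding length removed 15 of the 31 members were lower, 19 of the 49 MRPL genes and 7 of the 32 cytosolic genes, and 0, 1 and 4 were higher. Of all 11410 genes in that fit 13.7% were lower and 13.5% higher.

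**Figure D5:**
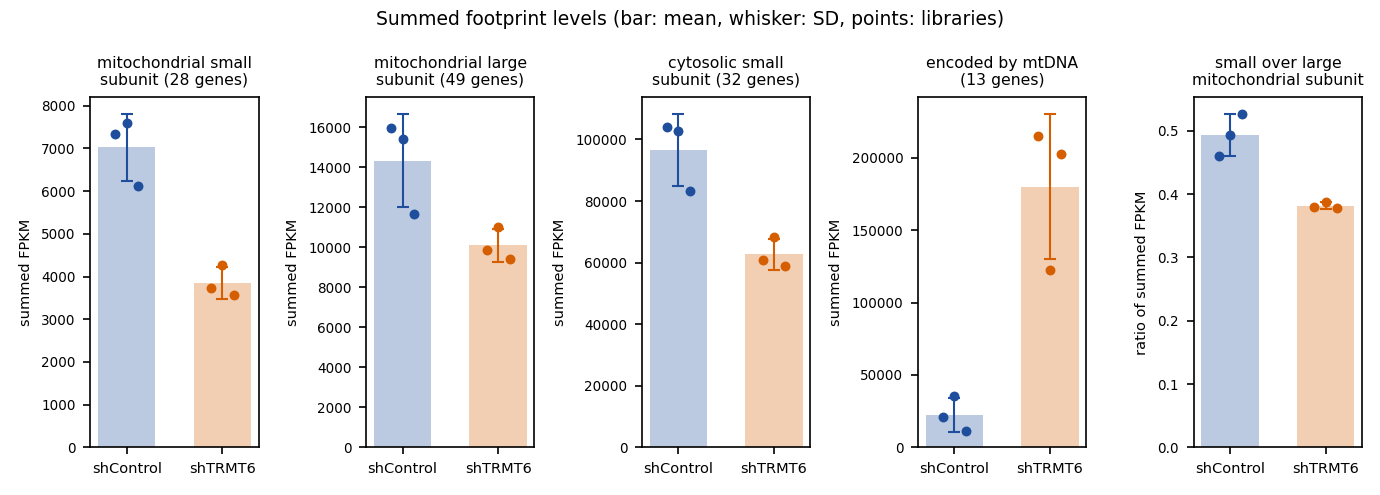
Summed FPKM per library of the 28 small subunit genes, 49 MRPL genes, 32 cytosolic small subunit genes and 13 genes of mitochondrial DNA, and the ratio of the 28 to the 49 (bars are means, whiskers the SD, points the 3 libraries of a group, all axes from 0). The first 3 sums and the ratio are lower in every shTRMT6 library than in every shControl library, and the sum of the mitochondrial DNA genes is higher.

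Of 8 factors that assemble the small subunit 0 were lower and 1 was higher, and their median log2 fold change was -0.25. Among all tested genes 9.04% were lower and 26.5% higher, with a median of 0.39. When libraries were scaled to their medians, 4 of these factors passed as lower and 1 as higher, where 19.7% of all tested genes were lower. The counts were also 4 and 1 with quantile normalization, and 2 and 1 with trends by level and coding length removed. RBFA, a factor bound to the immature small subunit, rose from 41.2, 41.0 and 30.8 FPKM in the control libraries to 88.5, 99.1 and 94.9 FPKM (log2 fold change 1.31 with SE 0.23, limma adjusted p = 0.00324). TFB1M and METTL15, which methylate the rRNA of the small subunit, had log2 fold changes of -0.69 and -1.07 and did not pass (limma adjusted p = 0.0608 and 0.0617). ERAL1, the chaperone of that rRNA, had -0.51 (limma adjusted p = 0.0936). TFB1M and ERAL1 did pass as lower with median scaling, with quantile normalization and with trends removed (limma adjusted p = 0.0192 and 0.0124 in the last). METTL15 passed with median scaling and with quantile normalization (limma adjusted p = 0.0154 and 0.0125). RBFA stayed higher in each of these fits. Of 10 mitochondrial translation factors 0 were lower and 2 higher, with a median of 0.29 beside 0.39 for all tested genes. With median scaling 3 were lower and 1 higher, with a median of -0.19 beside -0.07 for all tested genes. The initiation factor MTIF2 had a log2 fold change of 1.67 and the release factor MTRF1L 0.84 (limma adjusted p = 0.015 and 0.0318), and MTRF1L did not pass with median scaling (0.35, limma adjusted p = 0.302). With trends by level and coding length removed neither passed, with MTIF2 at 1.14 (limma adjusted p = 0.0528) and MTRF1L at 0.57 (limma adjusted p = 0.0988). MTRF1, with 0.79, did not pass (limma adjusted p = 0.0917). The elongation factor TUFM, the highest of these, had 514 ± 102 and 424 ± 105 FPKM (SD, n = 3 each; limma adjusted p = 0.382).

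The mRNAs that these ribosomes translate went the other way. Of the 13 genes of mitochondrial DNA 12 were tested and 12 were higher, where 26.5% of all tested genes were. Their log2 fold changes ran from 2.22 to 3.48, while the members' ranged from -1.64 to 1.08. MT-ND1 did not reach the minimum for testing, and the reason was not examined. The 13 genes summed to 22544 ± 11880 FPKM with the control hairpin and 179939 ± 50092 FPKM with knockdown (SD, n = 3 each), 7.98-fold higher. MT-ATP8 made up much of this sum, and without it, a choice made after seeing the data, the sum was 5.77-fold higher, 12067 ± 6037 against 69628 ± 7902 FPKM. In the control libraries the sum of all 13 was lowest in shControl replicate 3, at 11558 FPKM. As a share of all FPKM this class went from 1.33% to 11.6%. FPKM is scaled to the whole library, and the part of this rise in the members' lower values was not tested. With each library scaled to its median gene, the members' median was -1.29 and that of all tested genes -0.07. The members' median was -0.75 with quantile normalization and -0.64 with trends by level and coding length removed.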

How the data were processed

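Footprint libraries of RKO cells, 3 shControl and 3 shTRMT6, were read as FPKM per gene, the unit deposited by the authors per the file headers. Per the submitters' processing notes, fastp, STAR and RSEM were used. Tool versions, genome build, annotation and strand: not given in the sources used here. The division of reads between a gene and its pseudogenes is not stated either, and 16 of the 31 members have named pseudogenes, 44 in all. Columns NC and SH were taken as shControl and shTRMT6, a reading that the labels do not spell out, and 0 columns remained unassigned. Positions and coding lengths are from GENCODE 29 (GRCh38).

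limma 3.58.1 in R 4.3.3 with an intensity trend and no term besides group was fitted to log2(FPKM + 1) for the 11566 genes reaching 1 FPKM in 3 or more libraries. Genes with a Benjamini-Hochberg adjusted p under 0.05 over all of these were called. The scale understates changes of low genes. Members and lists were chosen with earlier results of these data known, and no test was made over the members as a list. The rule for values in each library named TRMT6, the 8 largest called changes without overlap, the 4 members nearest 0, the MRPS18 paralogs, DAP3, PTCD3, MRPS30, MRPS36 and the highest and lowest members; of other lists, up to 3 genes of smallest p. The values of MRPS9, MRPS12, MRPS25 and MRPS27, and those of ERAL1 and TUFM, were added after they were seen. Depth was estimated from genes with 1 coding transcript, taking the authors' length to be the coding length, and no count model was fitted. Simulated with independent noise over 11566 genes, the same fit recovered 10% of 100 genes changed 2-fold and 64% of 100 changed 4-fold, and 3 of 77 calls were false. Far fewer genes were changed there than were called in the data (1046 lower and 3069 higher). The adjusted threshold was therefore stricter in the simulation, and its rates do not carry over to the data. The alternatives were median scaling, quantile normalization, splines (5 degrees of freedom) that removed trends with level and coding length, testing without the filter or above a mean of 5 FPKM, a pseudocount of 0.1, a replicate block and each library left out. Python 3.11.15, pandas 2.3.3, numpy 2.4.6 and matplotlib 3.10.9 were used.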

Additional observations from a re-analysis of the deposited data

How the results depend on the processing

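The median of the members stayed lower with knockdown in the alternatives run. Their sum also stayed lower where it was taken again, which was not done for the other scalings. It was taken as a share of all FPKM, with each library left out, and without MRPS21 or MRPS18A, MRPS30 and MRPS36. The count of 16 lower members was 15 to 24 under the other scalings, filters, pseudocount and block, and 10 to 21 when 1 library was left out. The count of 0 higher members became 1, PTCD3, with the replicate block, and was 0 to 1 when 1 library was left out. The median log2 fold change of -0.79 was -1.29 with median scaling and -0.64 with trends by level and coding length removed, and -0.90 to -0.68 when 1 library was left out. The sum of the members, 0.550 of the control level, was 0.612 without MRPS21, an alternative chosen after seeing the data, and 0.516 to 0.574 when 1 library was left out.

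Over all tested genes, 1046 lower genes became 2275 with median scaling and 1700 with quantile normalization, and 587 to 1428 when 1 library was left out. The 3069 higher genes became 1520, 1602 and, with trends removed, 1535, and 1828 to 3270 when 1 library was left out; the cause was not tested. Deviations of same-numbered libraries correlated at 0.012, 0.0134 and 0.102, and those of other pairs at -0.143 to 0.127. With 3 libraries per group, these values cannot settle whether the numbers mark shared samples. The replicate block gave 1065 lower and 3146 higher genes and 17 lower members, with MRPS11 and PTCD3 newly passing. Depth is an estimate; the least precise log2 fold changes were those of MRPS9, PTCD3 and MRPS31, with standard errors of 0.45, 0.39 and 0.38.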
